A study of Homo sapiens with 16 samples.

Results

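Estrogen receptor beta (ERB), the product of ESR2, was introduced into SW620 colon cancer cells by transduction, and the resulting untreated cells were set against the untransduced parental line by RNA sequencing. SW620 is a human line derived from a lymph node metastasis of a colon adenocarcinoma. The comparison rests on 4 of the 16 libraries of the series, 2 labelled as SW620 ERB-transduced without treatment and 2 labelled as SW620 parental without treatment, and these labels chose them. All cells were cultured in DMEM with FBS, and neither group received added estradiol. The other SW620 libraries were ERB-transduced cells given 10 nM estradiol for 24 h, ERB-transduced cells given DMSO for 24 h, and untreated cells transduced with an empty vector, with 2 libraries each. The remaining 6 libraries came from the related line SW480. The vector, its promoter and whether the transduced cells were a pool or a clone are not given in the sources used here. Libraries are numbered I and II, and no source says that they came from separate cultures, so p-values measure only the spread between these libraries, which may be technical.

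ERB is a nuclear receptor that binds DNA as a dimer at estrogen response elements and recruits coregulators when it holds a ligand such as estradiol. It is the main estrogen receptor of normal colonic epithelium, and its level is often reduced in colon tumours. Parental cells differ from transduced cells by the introduced gene and also by the vector, by the transduction and by the culture that follows it, whereas empty vector cells share these last features with ERB cells. In the comparison with parental cells, the receptor and the transduction therefore cannot be told apart.

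The 2 ERB libraries held 15788126 and 18740158 counted reads, against 14390800 and 14002269 reads in the 2 parental libraries, and the 16 libraries ranged from 12743940 to 18948283. The epithelial genes VIL1, EPCAM, CDX2, KRT8, KRT18 and KRT19 had reads in all 4 libraries, and CDX1 had 0 reads in all 4. The colon markers KRT20, LGALS4 and CEACAM5 were near 0, with 8 reads or fewer in each library. CDH17 had 45 and 65 reads in ERB cells and 40 and 28 in parental cells. Of 11 leukocyte markers 6 were at 0 reads in all 4 libraries, among them PTPRC, CD3E and CD3D, and the 11 summed to 4.37 and 5.02 CPM in ERB cells and 2.29 and 1.93 CPM in parental cells, mostly LYZ with 51 and 76 reads in ERB cells and 28 and 15 in parental cells. Of 10 fibroblast markers 4 were at 0 in all 4 libraries, among them COL1A2, COL3A1 and DCN, and the 10 summed to 11.8 and 9.02 CPM in ERB cells and 8.41 and 6.57 CPM in parental cells, with COL1A1, LUM and PDGFRB holding most reads. Of 6 endothelial markers 3 were at 0 in all 4 libraries, among them PECAM1 and KDR, and the 6 summed to 0.95 and 0.587 CPM in ERB cells and 1.53 and 1.36 CPM in parental cells, mostly VWF. None of these markers was called, and their part in the results below was not tested. The 328 genes that were at least 8-fold higher in parental SW480 than in parental SW620 stood at a median of 1.79% and 1.72% of their SW480 level in the ERB libraries and at 1.66% and 1.52% in the parental SW620 libraries. Conversely, 31 genes were at least 8-fold higher in parental SW620 than in parental SW480. Their median was 83.5% and 82.0% of the SW620 level in the ERB libraries, and 100% and 99.9% in the empty vector libraries. Both gene sets were chosen on the parental libraries, so the parental values are set by that choice. Parental libraries I and II differed more from each other than the ERB libraries did, with a chi-square per degree of freedom of 6.62 between the ERB libraries and 42 between the parental libraries. The correlation of a library's deviation from the mean with the GC content of the gene was 0.2 and 0.17 in the ERB libraries, against -0.23 and 0.51 in the parental libraries. It was 0.47 and -0.13 in the empty vector libraries, 0.30 and 0.56 after estradiol and -0.56 and -0.72 after DMSO.

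ESR2 was the first gene examined, because it reports on the transduction. It had 162 and 187 reads in the ERB libraries, against 0 and 0 reads in the parental libraries. This corresponded to 10.3 and 10.0 CPM (reads scaled to the same library total) in ERB cells, a mean of 10.1 ± 0.2 CPM (SD, n = 2), and the groups did not overlap. With a floor of 3 reads over both parental libraries together, ESR2 was at least 95.7-fold higher in ERB cells (adjusted p = 0.000266, edgeR quasi-likelihood test with Benjamini-Hochberg adjustment). Empty vector cells had 1 ESR2 read in each library. The treated ERB cells had 180 and 157 ESR2 reads after estradiol and 165 and 100 after DMSO. ESR1, which encodes estrogen receptor alpha, had 0 reads in all 16 libraries. GPER1, a membrane estrogen receptor gene, had 49.9 and 46.8 CPM in ERB cells and 72.7 and 95.5 CPM in parental cells, and did not pass the test (adjusted p = 0.307, edgeR with Benjamini-Hochberg adjustment).

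Across the 16533 genes tested, the median log2 fold change of ERB over parental cells was 0.00052. edgeR called 57 genes at an adjusted p under 0.05, which is 0.345% of those tested. Of these, 43 rose in ERB cells (0.26% of genes tested) and 14 fell (0.0847%). In all 57 the libraries of the groups did not overlap, a condition that 5398 genes (32.6%) met, and the smallest called change was 1.93-fold. Here and below, levels are CPM scaled by TMM factors, and the spread was estimated over the 10 SW620 libraries. When the spread came from all 16 libraries, from the 4 libraries of the comparison alone or from the 6 untreated SW620 libraries, 1 gene was called, ESR2, so every other call below rests on the fit that also holds the treated libraries. The count was 4 without ERB library I, 9 without ERB library II, 790 without parental library I and 92 without parental library II, and with offsets for GC content and gene length it was 526, of which 260 were higher and 266 lower in ERB cells.

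**Figure D1:**
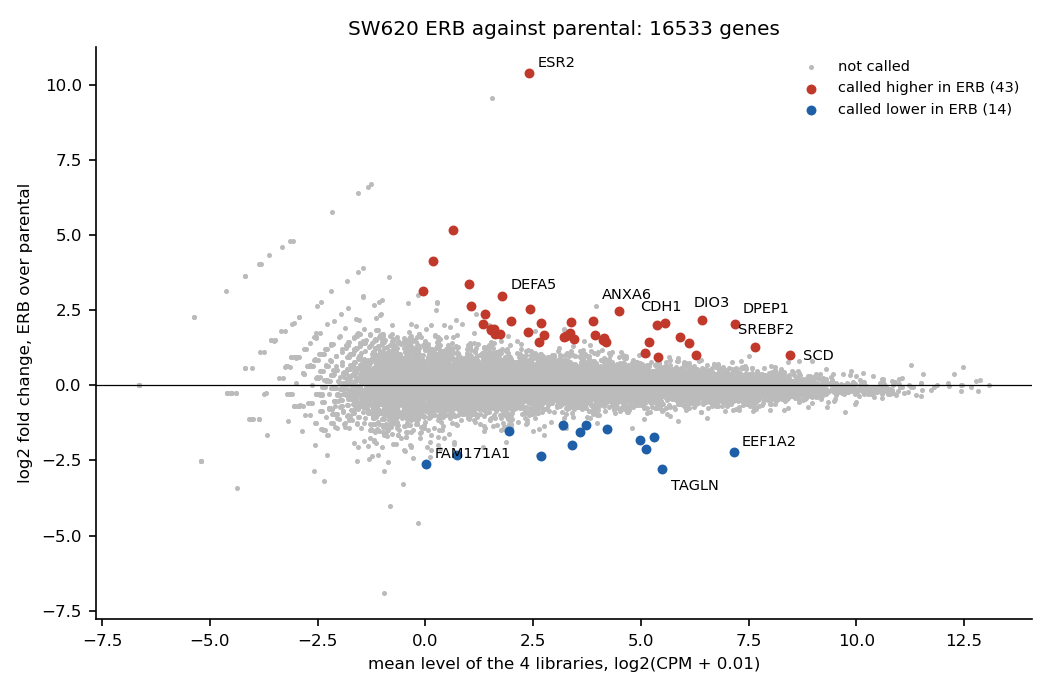
Each point is 1 of 16533 genes, with its mean level over the 2 ERB and 2 parental libraries (log2(CPM + 0.01)) on the horizontal axis and the log2 fold change of ERB over parental on the vertical axis. The 43 genes called higher are red and the 14 called lower are blue; ESR2 stands above all other genes at 10.4, a fitted value that depends on the prior count because parental cells had no read.

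CDH1, KRT23 and FGFBP1 were among the genes that rose. CDH1, which encodes E-cadherin, the adhesion molecule of epithelial junctions, had 72.2 and 81.3 CPM in ERB cells, against 20.8 and 15.7 CPM in parental cells. Each ERB library was thus above each parental library, and the log2 fold change was 2.07 (SE 0.19, adjusted p = 0.00232, edgeR with Benjamini-Hochberg adjustment). KRT23, an epithelial keratin, had 63.7 and 70.2 CPM in ERB cells and 15.5 and 17.6 CPM in parental cells (log2 fold change 2.02, SE 0.18, adjusted p = 0.00232 by the same test). FGFBP1, a secreted carrier that releases fibroblast growth factors from the matrix, had 8.01 and 10.4 CPM in ERB cells, against 1.45 and 1.68 CPM in parental cells (log2 fold change 2.56). These 3 genes and ESR2 were the 4 that were still called without ERB library I. S100A14, a calcium-binding protein of epithelia, had 16.1 and 15.6 CPM in ERB cells and 4.08 and 5.45 CPM in parental cells, and it rose without overlap between the groups.

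CDH1 was the single call in its own list. Of 28 epithelial junction and polarity genes tested, 1 rose and 0 fell, and their median log2 fold change was 0.16, against 0.00052 over all genes. MARVELD3, a tight junction protein, had 15.7 and 15.8 CPM in ERB cells, against 8.5 and 7.8 CPM in parental cells, and TJP3, a junction scaffold, had 3.38 and 4.45 CPM against 1.73 and 2.18 CPM; the groups did not overlap in either gene, but neither passed the test (adjusted p = 0.0995 and 0.334, edgeR with Benjamini-Hochberg adjustment). VIM, the mesenchymal intermediate filament vimentin, had 462 and 495 CPM in ERB cells and 722 and 867 CPM in parental cells, a log2 fold change of -0.73 that did not pass (adjusted p = 0.104, edgeR with Benjamini-Hochberg adjustment). Of 13 mesenchymal genes 0 rose and 1 fell, FN1, which encodes fibronectin. It had 7.68 and 7.44 CPM in ERB cells, against 21.3 and 16.3 CPM in parental cells, without overlap (log2 fold change -1.32).

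Among called genes averaging at least 5 CPM in ERB cells, the largest increase after ESR2 was that of DEFA5. DEFA5, a Paneth cell defensin, had 6.29 and 5.86 CPM in ERB cells and 0.76 and 0.754 CPM in parental cells, a log2 fold change of 2.99 (SE 0.31, adjusted p = 0.00465, edgeR with Benjamini-Hochberg adjustment). ANXA6, a calcium-dependent membrane-binding annexin, had 37 and 38.8 CPM in ERB cells and 5.11 and 8.72 CPM in parental cells. DIO3, the deiodinase that inactivates thyroid hormone, had 152 and 128 CPM in ERB cells and 24.6 and 37.1 CPM in parental cells. In all 3 genes each ERB library was above each parental library. DPEP1, a dipeptidase of the brush border, had 243 and 224 CPM in ERB cells, against 43.4 and 69.2 CPM in parental cells, and was the 1 gene called among 8 enterocyte genes. CALB1, a calcium-buffering protein, had 28.1 and 20.4 CPM in ERB cells, against 6.42 and 4.44 CPM in parental cells. FXYD3, a regulator of the sodium pump, C6orf223, COL8A1, a collagen, and MMP14, a membrane-bound matrix protease, rose by log2 fold changes of 2.09, 2.13, 2.07 and 1.76.

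**Figure D2:**
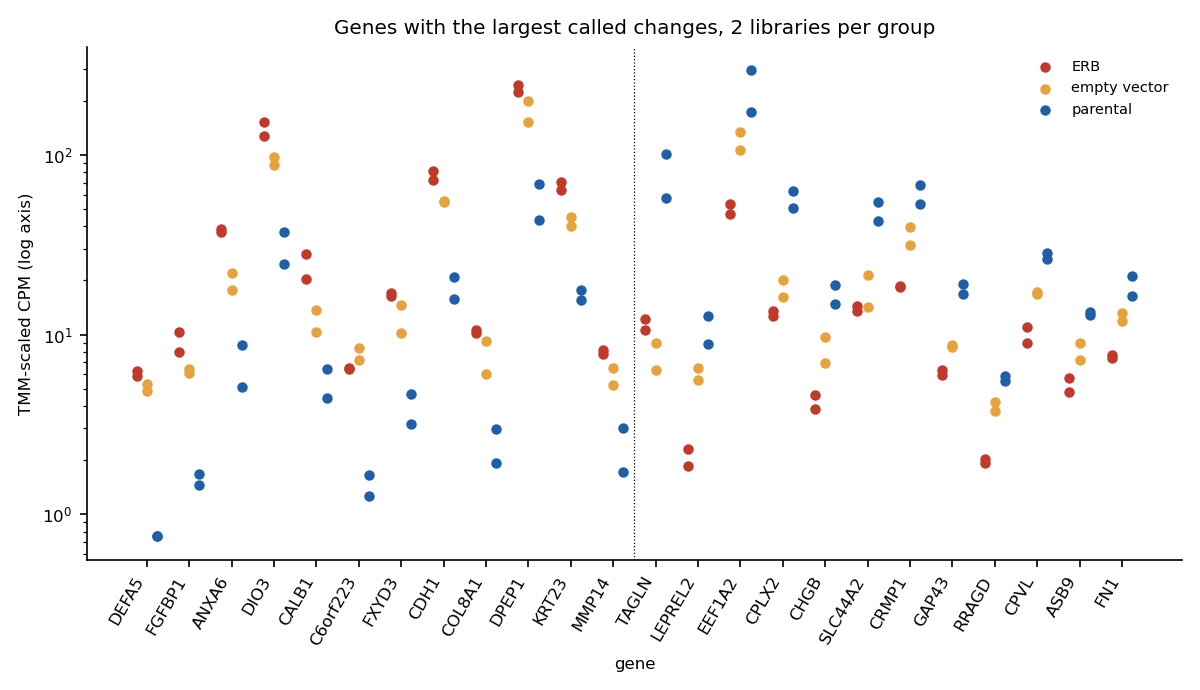
TMM-scaled CPM on a log axis for the 12 genes with the largest called increases after ESR2, which is not drawn (left of the dotted line), and the 12 with the largest called decreases, all averaging at least 5 CPM in whichever cells had more, with 2 points per group for ERB (red), empty vector (orange) and parental cells (blue). The red and blue points do not overlap in any of the 24 genes, and the orange points of CDH1, KRT23 and EEF1A2 lie between them.

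TAGLN had the largest decrease among called genes at 5 CPM or more. It encodes transgelin, an actin-binding protein of smooth muscle and mesenchymal cells, and had 12.3 and 10.7 CPM in ERB cells, against 57.4 and 101 CPM in parental cells (log2 fold change -2.79, SE 0.3, adjusted p = 0.00492, edgeR with Benjamini-Hochberg adjustment). The groups did not overlap, although the parental libraries differed from each other. TAGLN was the 1 gene called among 20 actin-binding and contractile genes, whose median was 0.10. LEPREL2, a collagen prolyl hydroxylase gene, fell to 1.85 and 2.31 CPM in ERB cells, against 8.84 and 12.7 CPM in parental cells. SLC44A2, a choline transporter-like protein, fell to 13.6 and 14.4 CPM in ERB cells, against 42.8 and 54.9 CPM in parental cells. CPVL, a carboxypeptidase-like protein, RRAGD, a GTPase that helps amino acids activate mTORC1, and ASB9, a ubiquitin ligase adaptor, fell by 1.44, 1.53 and 1.32 on the log2 scale.

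Genes best known from neurons and endocrine cells formed the largest group of decreases among the lists. Of 11 neuronal genes tested 0 rose and 4 fell, the median log2 fold change was -0.87, and 10 of the 11 were lower in ERB cells. EEF1A2, the translation elongation factor form of neurons and muscle, had 46.6 and 53.1 CPM in ERB cells, against 173 and 295 CPM in parental cells. CPLX2, a complexin of synaptic vesicle release, had 13.6 and 12.6 CPM in ERB cells, against 50.4 and 62.9 CPM in parental cells (log2 fold change -2.11, SE 0.21, adjusted p = 0.00417, edgeR with Benjamini-Hochberg adjustment). CRMP1, a protein of axon guidance, had 18.5 and 18.6 CPM in ERB cells and 53.5 and 67.8 CPM in parental cells, and GAP43, a growth cone protein, had 6.36 and 5.97 CPM in ERB cells and 16.8 and 19.2 CPM in parental cells. None of these 4 overlapped between the groups. SYT1, a vesicle calcium sensor, went the other way without passing the test, with 37.6 and 33.5 CPM in ERB cells, between the parental values of 45.2 and 17.8 CPM. CHGB, which encodes the granule protein chromogranin B, fell to 3.84 and 4.62 CPM in ERB cells, against 18.9 and 14.8 CPM in parental cells, the 1 call among 8 goblet and secretory genes. CHGA, its relative, was at 0.662 and 0.564 CPM in ERB cells and 2.14 and 2.01 CPM in parental cells and was not called.

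Cholesterol genes had the highest median change of the lists that held a call. This pathway is controlled by SREBP2, the product of SREBF2, a membrane-bound factor that is released when sterols are low and then activates genes of the pathway, among them INSIG1 and its own gene. Of 26 cholesterol synthesis and uptake genes tested 4 rose and 0 fell, 23 were higher in ERB cells, and the median log2 fold change was 0.60. SREBF2 had 281 and 285 CPM in ERB cells, against 104 and 128 CPM in parental cells (adjusted p = 0.0126, edgeR with Benjamini-Hochberg adjustment). INSIG1, which retains SREBPs in the endoplasmic reticulum, had 26.8 and 26.2 CPM in ERB cells and 8.98 and 8.97 CPM in parental cells (log2 fold change 1.56, SE 0.23, adjusted p = 0.0199 by the same test). All 4 called genes were separated between the groups.

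The other members did not pass the test one by one. HMGCS1, an early enzyme, had 49.5 and 47.5 CPM in ERB cells, against 33.2 and 13.4 CPM in parental cells, without overlap. NSDHL, PMVK and CYP51A1 had negative log2 fold changes of -0.38, -0.27 and -0.09. Among 11 fatty acid synthesis genes 1 rose and 0 fell, SCD, the stearoyl-CoA desaturase, with 461 and 480 CPM in ERB cells, against 250 and 220 CPM in parental cells. SOAT2, which esterifies cholesterol, rose as well, to 9.6 and 8.68 CPM in ERB cells, against 3.11 and 3.6 CPM in parental cells. With offsets for GC content and length, 13 of the 26 cholesterol genes were called higher, in a fit that called more genes of every kind. That fit called 260 genes higher among all those tested, against 43 without offsets. Of the cholesterol genes, 0 were called when the spread came from the 4, 6 or 16 libraries above.

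The promoters of SREBF2, INSIG1 and SCD are shown because these genes of lipid synthesis rose in ERB cells. Each sequence is the 250 bases before the gene start in RefSeq (GRCh38.p14, plus strand, 5′ to 3′). Capitals mark TCACCCCAC, a sterol regulatory element, and CCAAT, the core of the NF-Y element, on either strand (ATTGG is CCAAT on the other strand), and these motifs do not overlap here.
SREBF2 promoter, chr22:41832855-41833104: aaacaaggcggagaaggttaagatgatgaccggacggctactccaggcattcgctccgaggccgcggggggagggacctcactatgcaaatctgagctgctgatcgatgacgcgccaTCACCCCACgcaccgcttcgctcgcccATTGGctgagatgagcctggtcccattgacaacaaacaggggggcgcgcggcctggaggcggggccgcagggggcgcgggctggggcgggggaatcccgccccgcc
INSIG1 promoter, chr7:155297628-155297877: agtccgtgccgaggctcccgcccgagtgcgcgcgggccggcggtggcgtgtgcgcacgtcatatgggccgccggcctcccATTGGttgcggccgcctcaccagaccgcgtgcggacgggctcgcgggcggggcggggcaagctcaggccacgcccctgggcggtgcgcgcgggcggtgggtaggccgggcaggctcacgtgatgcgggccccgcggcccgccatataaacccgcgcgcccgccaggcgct
SCD promoter, chr10:100346983-100347232: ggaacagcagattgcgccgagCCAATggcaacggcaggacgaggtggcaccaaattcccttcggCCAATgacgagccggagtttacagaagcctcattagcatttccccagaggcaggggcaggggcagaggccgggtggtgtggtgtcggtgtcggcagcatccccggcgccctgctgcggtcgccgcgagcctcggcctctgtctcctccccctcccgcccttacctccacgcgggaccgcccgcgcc

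In the SREBF2 promoter the sterol element lay 133 to 125 bases before the start, followed by CCAAT on the minus strand at 106 to 102. Of 35116 RefSeq promoters of this length, 0.362% held TCACCCCAC and 32% held CCAAT on either strand. ESR2 was left out of these counts because it is the introduced gene. Promoters were found for 26 of the other genes that rose, of which 1 held TCACCCCAC and 13 held CCAAT, and for 9 of the genes that fell, of which 0 held TCACCCCAC and 6 held CCAAT. The palindromic estrogen response element GGTCANNNTGACC was in 0.0399% of all promoters and in 0 of the 26 and 0 of the 9. AGGTCA, which is 1 side of that palindrome preceded by an A, was in 12.1% of all promoters, in 2 of the 26 and in 2 of the 9. These matches describe the letters of a short window only.

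Classical estrogen-responsive genes were not called. Of 23 tested, known largely from breast cells, 0 rose and 0 fell, with a median log2 fold change of -0.08. ABCA3, a lipid transporter, had 4.7 and 5.75 CPM in ERB cells, against 12.3 and 15.6 CPM in parental cells, without overlap but also without passing the test (adjusted p = 0.0841, edgeR with Benjamini-Hochberg adjustment). ADCY9, an adenylyl cyclase, had 14.3 and 12.9 CPM in ERB cells and 16.6 and 18.3 CPM in parental cells. Of 4 genes with a reported response to ERB in colon cancer lines that were tested, 0 were called. PROX1, a homeobox factor, had 96 and 73.7 CPM in ERB cells, overlapping with the 79.9 and 29 CPM of parental cells, and MYB, a proto-oncogene factor, had 68 and 68.9 CPM in ERB cells, against 66.4 and 39.1 CPM in parental cells.

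Cell cycle genes had slightly negative medians without a call. The median was -0.17 for 28 DNA replication genes and -0.22 for 24 genes of G2 and mitosis, with 0 called in either. TYMS, thymidylate synthase, had 245 and 280 CPM in ERB cells and 333 and 391 CPM in parental cells, a log2 fold change of -0.46 that did not pass. CDKN1A, which encodes the CDK inhibitor p21, rose to 3.91 and 5.07 CPM in ERB cells, against 1.17 and 1.26 CPM in parental cells (log2 fold change 1.88, adjusted p = 0.0409, edgeR with Benjamini-Hochberg adjustment), the 1 call among 12 G1 cyclins and CDK inhibitors.

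Growth factor and stress response genes gave 1 call in each of 2 lists. Of 17 immediate early genes 1 rose and 0 fell, KLF2, a Krüppel-like factor, with 5.63 and 4.51 CPM in ERB cells, against 1.59 and 1.51 CPM in parental cells, and the list's median was 0.48. EGR1, an early growth response factor, had 42.9 and 40.6 CPM in ERB cells and 18.7 and 23 CPM in parental cells (adjusted p = 0.0569, edgeR with Benjamini-Hochberg adjustment). Of 13 genes of MAPK feedback 0 were called, and 12 were higher in ERB cells (median 0.43); DUSP6, a phosphatase of ERK, had 67.8 and 65.3 CPM in ERB cells, against 41.7 and 27.8 CPM in parental cells. DDIT4, an inhibitor of mTORC1 induced by stress, rose to 16.4 and 15.7 CPM in ERB cells, against 4.97 and 6.2 CPM in parental cells, the 1 call among 22 amino acid and endoplasmic reticulum stress genes, whose median was -0.06. Of 6 metallothionein genes 0 were called, with a median of 0.51.

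The lists described so far include all that held a call, and the 39 lists together held 18 called genes. In the lists left, 0 genes were called. Among their medians were 0.01 for 19 WNT targets and stem cell genes, 0.53 for 11 intestinal transcription factors and 0.24 for 14 NF-kB targets. Interferon-stimulated genes (23) had 0.06 and genes of MHC class I presentation (14) had -0.23. Retinoic acid genes (11) had 0.48, collagens and laminins (13) 0.37, YAP and TAZ targets (11) 0.31 and integrins (14) 0.26. Circadian clock genes (17) had 0.16 and Notch genes (12) -0.14. HNF4A, a nuclear receptor of gut and liver epithelium, had 209 and 204 CPM in ERB cells, against 136 and 150 CPM in parental cells, without overlap and without a call (adjusted p = 0.223, edgeR with Benjamini-Hochberg adjustment). Cytosolic ribosomal protein genes (52) had a median of -0.08 and mitochondrially encoded mRNAs (13) one of 0.09.

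**Figure D3:**
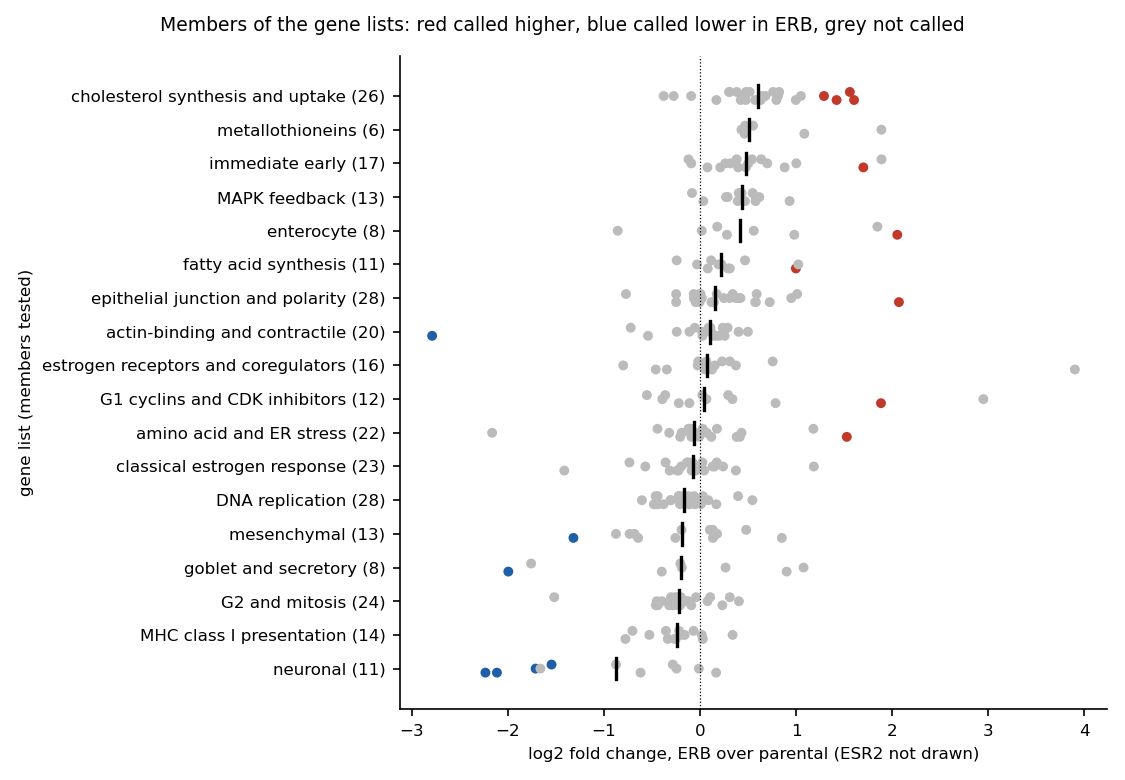
Each point is 1 tested member of a gene list, with its log2 fold change of ERB over parental on the horizontal axis; red members were called higher, blue called lower and grey not called, and the black bar is the median of the members drawn. Cholesterol genes lie mostly to the right of 0 and neuronal genes mostly to the left; ESR2 is not drawn.

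The empty vector cells were then placed beside the same genes, since by their label they were also transduced. ERB cells differed from empty vector cells in 1 gene of 16533 (0.00605%) at an adjusted p under 0.05, and that gene was ESR2; 282 genes had an unadjusted p under 0.05, against 1465 genes for ERB against parental cells. Empty vector cells differed from parental cells in 14 genes (0.0847%), 11 higher (0.0665%) and 3 lower (0.0181%), and both comparisons share the parental libraries. The called cholesterol genes had close levels in the transduced groups. SREBF2 had 281 and 285 CPM in ERB cells, against 297 and 253 CPM in empty vector cells. The log2 difference of ERB from empty vector cells was 0.04 for SREBF2 (95% interval -0.33 to 0.42), and the median over the 26 cholesterol genes was 0.02. SCD had a difference of 0.04 (-0.29 to 0.37) and INSIG1 one of -0.13 (-0.62 to 0.36).

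For some other genes the empty vector libraries lay between ERB and parental cells. Of the 57 called genes, 24 besides ESR2 had an unadjusted p under 0.05 for ERB against empty vector cells (edgeR). CDH1, KRT23, ANXA6, EEF1A2 and LEPREL2 are among those 24. CDH1 had 72.2 and 81.3 CPM in ERB cells, against 55.3 and 54.7 CPM in empty vector cells, a log2 difference of 0.48 (95% interval 0.09 to 0.87). KRT23 had 63.7 and 70.2 CPM in ERB cells, against 40 and 45 CPM in empty vector cells (0.66, interval 0.28 to 1.04), and ANXA6 37 and 38.8 CPM, against 22 and 17.6 CPM (0.94, interval 0.39 to 1.48). EEF1A2 had 46.6 and 53.1 CPM in ERB cells, against 134 and 106 CPM in empty vector cells (-1.27, interval -1.95 to -0.58), and LEPREL2 1.85 and 2.31 CPM, against 6.55 and 5.58 CPM (-1.53, interval -2.26 to -0.80). None of these differences passed the adjustment over all genes, where the smallest adjusted p outside ESR2 was 0.999 by edgeR with Benjamini-Hochberg adjustment. These genes were named for their difference from parental cells and the same ERB libraries enter both comparisons, so the values are descriptions. TAGLN had 12.3 and 10.7 CPM in ERB cells, against 8.94 and 6.38 CPM in empty vector cells, so that the empty vector cells were the farther from parental cells (0.58, interval -0.08 to 1.25). DEFA5 had 6.29 and 5.86 CPM in ERB cells, against 5.29 and 4.83 CPM in empty vector cells (0.26, interval -0.29 to 0.82). C6orf223 had 6.42 and 6.48 CPM, against 8.37 and 7.19 CPM (-0.27, interval -0.77 to 0.23). Over the 11 neuronal genes tested, the median log2 difference of ERB from empty vector cells was -0.09, against -0.87 from parental cells.

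The treated ERB libraries give the levels of these genes after 24 h with estradiol or DMSO. CDH1 was above both parental libraries, with 56.8 and 50.1 CPM after estradiol and 58.5 and 61.9 CPM after DMSO. CPLX2 was below them, with 16.3 and 15.9 CPM after estradiol and 11.6 and 9.97 CPM after DMSO. DIO3 had 17.1 and 20.9 CPM after estradiol and 10.1 and 9.39 CPM after DMSO, all below the lower parental value of 24.6 CPM. FGFBP1 likewise had 1.23 and 1.26 CPM after estradiol and 0.986 and 1.02 CPM after DMSO, below both parental libraries. Of the cholesterol genes, INSIG1 had 3.95 and 2.93 CPM after estradiol and 4.32 and 4.34 CPM after DMSO, below both parental libraries. CHGB had 17.8 and 15.3 CPM after estradiol and 23.5 and 26.4 CPM after DMSO, near or above the 18.9 and 14.8 CPM of parental cells. DDIT4 stood far higher in these cultures, at 551 and 610 CPM after estradiol and 344 and 293 CPM after DMSO. These levels are descriptions, without a test, and the estradiol and DMSO libraries also differed in the GC correlation given above.

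**Figure D4:**
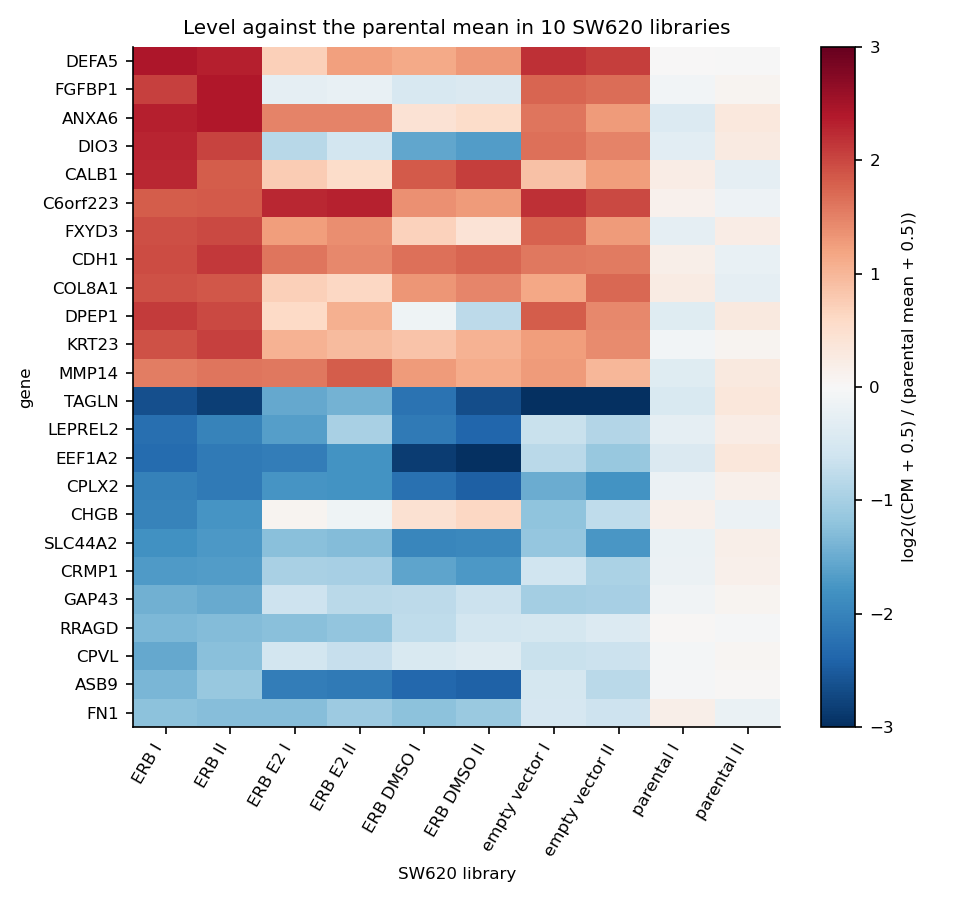
Colour gives log2((CPM + 0.5) / (parental mean + 0.5)) for the same 24 genes in the 10 SW620 libraries, with ERB libraries on the left, then ERB cells after estradiol and DMSO, empty vector and parental libraries. CDH1 is red in all 8 transduced libraries, whereas DIO3 and FGFBP1 are red in untreated ERB and empty vector libraries and blue in the estradiol and DMSO libraries.

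Genes were last grouped by chromosome, a grouping chosen after values had been seen. The median log2 fold change of ERB over parental cells was 0.43 for the 298 genes of chromosome 13, of which 78.9% were higher in ERB cells, and -0.25 for the 842 genes of chromosome 7, of which 25.2% were higher. The other 21 chromosomes had medians from -0.05 to 0.08, the last on chromosome 6. The genes of each chromosome were also split into 4 equal stretches in map order. On chromosome 6 the last stretch had a median of 0.39, whereas the first 3 had 0.02, 0.02 and -0.00476. All 4 stretches of chromosome 13 had positive medians, from 0.31 to 0.65, and all 4 of chromosome 7 negative ones, from -0.29 to -0.14.

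The ERB and parental libraries did not overlap in these medians, but other libraries did. Relative to the mean of the 10 SW620 libraries, the chromosome 13 median was 0.06 and 0.10 in ERB cells and -0.13 and -0.61 in parental cells, and the chromosome 7 median was -0.07 and -0.07 in ERB cells and 0.21 and 0.05 in parental cells. The chromosome 13 median was -0.04 and -0.14 in ERB cells after estradiol, 0.51 and 0.59 after DMSO and -0.20 and 0.07 in empty vector cells, so that 1 estradiol and 1 empty vector library lay below the higher parental library. The chromosome 7 median was -0.01 and -0.03 after estradiol, 0.01 and 0.06 after DMSO and -0.05 and 0.07 in empty vector cells, where 1 DMSO and 1 empty vector library lay above the lower parental library. Empty vector over parental cells had medians of 0.26 for chromosome 13 and -0.14 for chromosome 7. The parental libraries also differed in the GC correlation given above, and the DMSO libraries had its lowest values among the 10 SW620 libraries. With offsets for GC content and length the medians were 0.36 and -0.26, and the chromosome 13 median was 0.64 without parental library I and 0.23 without parental library II. Among the called genes, 2 on chromosome 13 rose and 0 fell, and on chromosome 7, 2 rose, INSIG1 and EPHA1, an ephrin receptor, and 1 fell, CPVL.

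**Figure D5:**
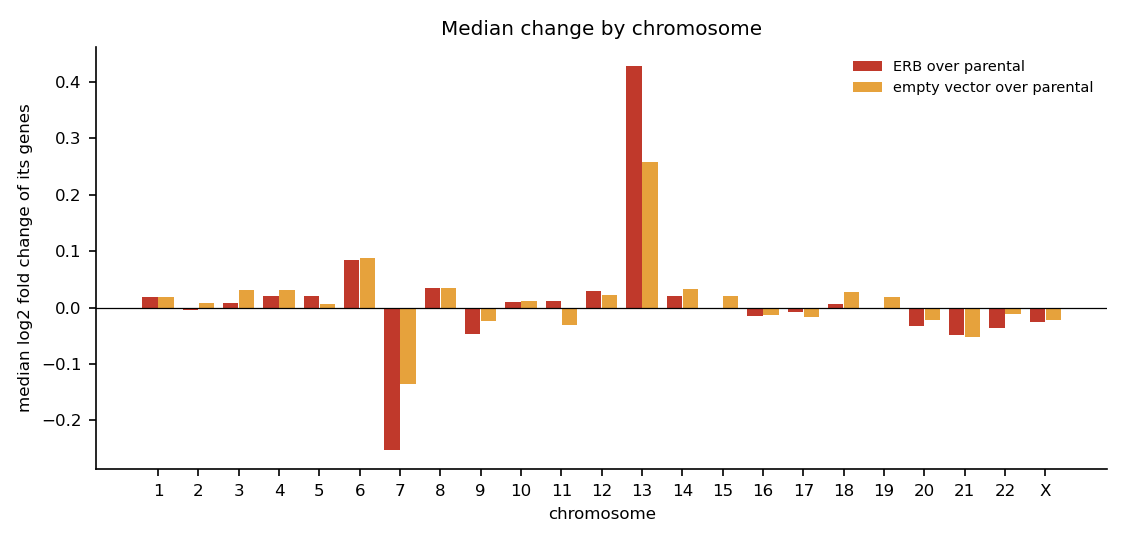
Bars give the median log2 fold change over the tested genes of each chromosome, for ERB over parental cells (red) and empty vector over parental cells (orange), which share the parental libraries. Chromosome 13 stands at 0.43 in ERB and 0.26 in empty vector cells and chromosome 7 at -0.25 and -0.14, while the medians of the other chromosomes in ERB cells lie between -0.05 and 0.08.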

How the data were processed

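RNA from 16 libraries of human colon cancer lines was prepared with a stranded mRNA kit, per the labels' protocols. The authors deposited whole-number counts and FPKM for every gene in 2 tables. The submitters' processing notes list, without roles, Cufflinks 2.1.1, HTSeq 0.6.1, Picard 1.29, TopHat2 2.0.4 and SAMtools, and the build GRCh37. No source used here says whether counting used strand. Exons of 22 of the 57 called genes overlap exons of another gene in GENCODE, among them CDH1, TAGLN, CRMP1 and LEPREL2 (P3H3), so these counts are uncertain to that extent. For 7 of the 22, ESR2 and LEPREL2 among them, an overlapping gene lies on the same strand. For CDH1, TAGLN and CRMP1 it lies on the opposite strand. The share of overlaps over all genes tested is not given here.

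The counts of 10 SW620 libraries in 5 groups of 2 were fitted with edgeR 4.0.16 (R 4.3.3; filterByExpr, TMM, quasi-likelihood test, Benjamini-Hochberg adjustment over all 16533 genes, calls at an adjusted p under 0.05). SDs in CPM are over 2 libraries. Members, lists, the choice of these 10 libraries and the tests were chosen with earlier results of these data known. The libraries labelled SW480 were kept out because they differ strongly within their groups. Named were ESR2, then up to 12 called genes per direction with the largest change, no overlap between groups and a higher mean of at least 5 CPM, then up to 3 genes per list with the smallest p; S100A14, SOAT2, EPHA1, SYT1, HMGCS1, NSDHL, PMVK and CYP51A1 were added after their values were seen. Some genes that these rules name are not reported here. Alternatives used DESeq2 1.42.0, limma 3.58.1, other scalings and filters, FPKM (limma-trend on log2(FPKM + 1), at least 1 FPKM in 2 libraries), GC and length offsets, other sets of libraries and each library left out. The depth of 12743940 to 18948283 reads per library allows a level of 0.158 to 0.235 CPM for a count of 0; this floor covers counting error only.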

Additional observations from a re-analysis of the deposited data

Results flagged for a closer look

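ESR2 had a log2 difference of 7.29 between ERB and empty vector cells (95% interval 6.37 to 8.21; edgeR quasi-likelihood test with Benjamini-Hochberg adjustment over all genes), which is a tested difference between the changes of these groups from parental cells; the empty vector libraries held 1 read each, so the size depends on the prior count.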

How the results depend on the processing

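The count of 57 genes for ERB against parental cells moved with most settings. It was 233 without a filter on low counts, 137 with DESeq2, 33 with limma-trend on log2(FPKM + 1), 12 for a minimum change of 2-fold, 526 with GC and length offsets, and 1 with all 16 libraries, with the 4 libraries alone and with the 6 untreated libraries, the last chosen after seeing the data. Leaving out 1 library gave 4 to 790. It stayed within 1.5 times the count with other size factors (55), limma-voom (54), a filter of 1 CPM in 4 libraries (61) and the other FPKM settings (43 and 73). These FPKM settings shared only 23 and 18 genes with the 57. The count of 18 called list genes was 40, 28, 8, 4, 69 and 1 in the same order (1 for each of the 3 library sets), 9 with log2(FPKM + 0.1), 8 with unfiltered FPKM, and 2 to 56 with 1 library left out. The cause was not tested. For the ERB and parental groups, the correlation of their differences between libraries II and I was 0.03. The ERB libraries differed little from each other, so this value cannot show whether replicate numbers pair the samples. Other pairs of SW620 groups had correlations from -0.62 (parental and empty vector) to 0.32 (parental and ERB with estradiol). A replicate block gave 23 calls (17 higher, 6 lower) and 8 list genes, and with offsets 287 and 43. The mean ESR2 level in ERB cells was 10.6 as TMM-scaled CPM and 8.29 FPKM. ERB against empty vector cells gave 1 gene in each of the 7 alternatives run. The 32 named genes with calls kept their direction in every alternative run, and 31 of them lost the call in the 16-, 4- and 6-library fits. With FPKM, 17 of the 32 lost it on log2(FPKM + 1), 16 on log2(FPKM + 0.1) and 19 without a filter. A minimum change of 2-fold took the call from 23 and a replicate block from 15. The chromosome medians kept their sign in each of 15 alternatives, from 0.23 to 0.64 for chromosome 13 and from -0.28 to -0.16 for chromosome 7.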
